A study of Mus musculus with 44 samples.

Results

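Myelin and oligodendrocyte genes were followed in the nucleus accumbens of mice given a viral vector for RXRa, the alpha form of the retinoid X receptor, a ligand-regulated DNA-binding protein. The 9 genes, of 55487 gene identifiers in each of 2 count tables, were Mbp, Mobp, Mal, Mog, Mag, Cnp, Ugt8a, Ermn and Olig2. They were taken by symbol, and all 9 were present in both tables and passed the filter on low counts in both. The bulk table held poly(A)-selected RNA from accumbens tissue of males infused with a herpes simplex virus vector, 4 libraries with HSV-GFP and 4 with HSV-RXRa-GFP. The sorted table held ribosomal-RNA-depleted total RNA from sorted nuclei labelled D1 or D2, after the dopamine receptor genes Drd1 and Drd2 that mark the main classes of striatal projection neuron. Those animals carried an AAV9 vector with the general CAG promoter and a DIO insert, which Cre recombinase turns on, holding either EGFP or EGFP-P2A-RXRa. There were 5 EGFP and 4 RXRa libraries for D1 females, 5 and 4 for D1 males, 4 and 4 for D2 females, and 5 and 4 for D2 males. The age and strain of the mice, the Cre driver, the details of the sort and the time after infusion were not given in the sources used here, nor was it stated whether each library came from 1 animal, so p-values measure only the spread between these libraries.

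Oligodendrocytes wrap axons in myelin, a stack of membrane rich in cholesterol and galactolipids that speeds conduction. Mature cells express a shared set of myelin genes at very high levels, while the lineage factors Olig2 and Sox10 act from the precursor stage onward. RXRa pairs with other nuclear receptors and binds repeats of a short half-site in DNA. The nucleus accumbens is a grey-matter region crossed by myelinated fibres, so bulk tissue holds oligodendrocytes beside its neurons, whereas a neuronal sort aims to leave them out.

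Positions below are those of GENCODE M21 on GRCm38, the build named in the submitters' processing notes. Mbp lay on chromosome 18 from 82475146 to 82585637. Mobp lay on chromosome 9 from 120149707 to 120181484, Mag on chromosome 7 from 30899176 to 30914873, Cnp on chromosome 11 from 100574904 to 100591729 and Mog on chromosome 17 from 37010743 to 37023398. Ermn (58045113 to 58052864) and Mal (127633226 to 127656695) were both on chromosome 2, Ugt8a was on chromosome 3 (125865271 to 125938619) and Olig2 on chromosome 16 (91225457 to 91228677). All 9 are protein-coding. Cnp shares 8912 bp with Dnajc7 on the opposite strand, Ermn shares 748 bp with Galnt5 on the opposite strand, and Mobp shares 2447 bp with Gm38642 on its own strand. Mog contains Gm22388 and Mbp contains Rpl21-ps8, both on the opposite strand. Whether strand was used in counting was not given in the sources used here, so reads of these overlapping pairs cannot be told apart.

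The vector separated the groups in both tables. The RXRa vector entry had 0 counts in the 4 bulk GFP libraries and 22.1 to 38.7 CPM (counts per 1000000 of the library total) in the 4 RXRa libraries, and in the sorted table it lay between 0 and 0.819 in EGFP libraries and between 45.4 and 556 in RXRa libraries. The smallest bulk library had 21567565 counts in all and the largest 29167142; for the 35 sorted libraries with a group these were 12211655 and 27757463. In bulk each of the 9 genes had at least 943 counts in every library, while in sorted nuclei Olig2 had as few as 11, so counting error weighed little in the first table and more in the second.

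Promoter windows of these genes were searched for a SOX motif and a nuclear receptor half-site. RefSeq windows (GRCm38.p6), read from 250 to 51 bases before the start site, were used for 8 of the 9 genes. No window was read for Mbp, so the motif counts below leave it out. The SOX core motif ACAAAG, searched on both strands, was present in 3 of the 8 windows, those of Mobp, Mag and Cnp, and in 13.6% of 32505 distinct windows of the same 200 bases across genes. The nuclear receptor half-site AGGTCA, searched on both strands, was in 0 of the 8 windows and in 11.4% of all windows. With 0 half-sites, no match of one motif overlapped a match of the other. The Mobp window held 6 copies of the SOX core, all as its reverse complement CTTTGT, and only 2 of the 32505 windows (0.00615%) held 5 or more; this count was chosen after the window had been read. A match is a description of the letters, and binding was not measured. The windows of the 3 genes with a match, of Mal and of Ugt8a, on which the results below turn, are printed from 5′ to 3′ with SOX core matches in capitals. They span chr9:120149492-120149691 (plus strand), chr7:30914914-30915113 (minus), chr11:100574689-100574888 (plus), chr2:127656746-127656945 (minus) and chr3:125938703-125938902 (minus).
Mobp: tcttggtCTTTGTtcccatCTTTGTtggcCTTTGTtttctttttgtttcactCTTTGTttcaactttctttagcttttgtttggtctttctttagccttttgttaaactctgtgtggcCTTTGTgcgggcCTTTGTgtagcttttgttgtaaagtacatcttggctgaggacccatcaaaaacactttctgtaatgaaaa
Mag: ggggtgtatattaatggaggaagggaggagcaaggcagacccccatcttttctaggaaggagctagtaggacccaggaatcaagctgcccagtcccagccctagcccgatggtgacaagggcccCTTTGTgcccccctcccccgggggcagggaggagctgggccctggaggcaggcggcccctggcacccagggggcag
Cnp: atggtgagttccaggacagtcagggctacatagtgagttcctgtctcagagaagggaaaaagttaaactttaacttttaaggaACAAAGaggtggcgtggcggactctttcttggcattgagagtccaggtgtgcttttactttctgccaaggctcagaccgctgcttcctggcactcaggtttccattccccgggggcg
Mal: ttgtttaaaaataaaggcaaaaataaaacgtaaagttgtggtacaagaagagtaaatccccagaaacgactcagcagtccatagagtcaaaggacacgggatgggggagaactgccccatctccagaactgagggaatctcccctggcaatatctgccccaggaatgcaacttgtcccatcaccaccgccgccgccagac
Ugt8a: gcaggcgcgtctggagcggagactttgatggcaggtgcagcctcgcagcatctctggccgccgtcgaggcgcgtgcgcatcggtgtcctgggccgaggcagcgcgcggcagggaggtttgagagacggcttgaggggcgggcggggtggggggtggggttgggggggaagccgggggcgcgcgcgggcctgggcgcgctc

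In bulk tissue under GFP the 9 genes covered a wide range of levels. CPM values from here on use library totals scaled by TMM factors, and levels of different genes are compared per kb of exon. Mbp was the most abundant at 194 CPM per kb, followed by Cnp at 148, Mal at 115, Mobp at 96.2 and Mag at 90.8 (means of 4 GFP libraries). Mog at 49.2, Ermn at 27.7, Olig2 at 18.9 and Ugt8a at 16.5 were lower. The GFP libraries of Mal and Mobp overlapped on this scale, as did those of Mobp and Mag and those of Olig2 and Ugt8a, and the other neighbours in the order did not overlap.

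RXRa libraries had lower mean levels than GFP libraries for 8 of the 9 genes in bulk tissue, and 0 of 9 passed the test. The median log2 fold change of the 9 was -0.34, against -0.02 for all 18579 genes tested, of which 53.5% were lower. With edgeR's quasi-likelihood test and a Benjamini-Hochberg adjusted p under 0.05, 687 genes (3.7%) were called, 559 higher and 128 lower. That count was 9 without GFP replicate 4, 243 without GFP replicate 2 and 402 without GFP replicate 3. It was 333 without RXRa replicate 2, 292 without RXRa replicate 3 and 175 without RXRa replicate 4. DESeq2 gave 1619, and a fit with the replicate number as a block gave 0. At an unadjusted p under 0.05 the count was 3 of 9 (Mal, Mog and Mbp), against 3990 of all genes (21.5%). DESeq2 called 1 of the 9, Mal, and limma voom called 0. RXRa replicate 1 was the lowest of the 8 libraries for all 9 genes, at 49.2% (Ugt8a) to 87.5% (Olig2) of the GFP mean.

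The structural proteins of compact myelin came first. Mbp, myelin basic protein, which holds the inner faces of the membrane together, measured 1535, 1712, 1840 and 1489 CPM in GFP replicates 1 to 4 and 958.8, 1564, 1318 and 1301 CPM in RXRa replicates 1 to 4. Only RXRa replicate 2 reached into the GFP range. Its log2 fold change was -0.35 (SE 0.14, adjusted p = 0.182).

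Mobp, a small basic protein of the same compartment, measured 592.2, 660.4, 786.6 and 597.4 CPM under GFP and 355.1, 689.7, 520.5 and 522.3 CPM under RXRa. RXRa replicate 2 lay above 3 of the 4 GFP libraries and the other RXRa libraries lay below all of them, with a log2 fold change of -0.34 (SE 0.18, adjusted p = 0.315). Mal, a tetraspan proteolipid of lipid-rich myelin membrane, measured 321.7, 316.9, 330 and 311.9 CPM under GFP and 164.8, 287.2, 243 and 246.2 CPM under RXRa. It was the 1 gene of the 9 whose groups did not overlap, all RXRa libraries lying below all GFP libraries; 6.54% of all genes tested had their RXRa libraries all below and 13.2% had their groups apart in either direction. Its log2 fold change was -0.44 (SE 0.14) with an adjusted p of 0.114 in edgeR and 0.0441 in DESeq2, and without RXRa replicate 1 it was -0.30. Over the alternatives that leave out 1 library the edgeR adjusted p of Mal ranged from 0.051 to 0.246.

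The surface proteins that face the axon or the outside of the sheath followed. Mog, an immunoglobulin-like protein on the outermost layer, measured 85.02, 84.99, 85.75 and 79.85 CPM under GFP and 45.16, 81.5, 62.79 and 66.47 CPM under RXRa. The GFP libraries lay close together (SD 2.72 CPM) and the RXRa libraries were spread more widely (SD 14.9 CPM), with RXRa replicate 2 alone inside the GFP range. Its log2 fold change was -0.39 (SE 0.15, adjusted p = 0.165). Mag, the adhesion molecule of the membrane next to the axon, measured 407, 385, 334.9 and 352.1 CPM under GFP and 213.4, 435.2, 267.8 and 303.8 CPM under RXRa. RXRa replicate 2 was the highest of all 8 libraries and the other RXRa libraries were below all GFP libraries, and the log2 fold change was -0.28 (SE 0.19, adjusted p = 0.427).

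The enzymes of myelin had the same order among the 4 RXRa libraries, from replicate 1 (lowest) through 3 and 4 to 2, but not among the GFP libraries. All the other genes described except Mbp had this RXRa order too. Cnp, a phosphodiesterase of non-compact myelin, measured 576.1, 545.6, 531.1 and 494.2 CPM under GFP and 351.2, 580.6, 433.1 and 469.9 CPM under RXRa, with a log2 fold change of -0.23 (SE 0.13, adjusted p = 0.361). Ugt8a, which makes galactosylceramide, the main galactolipid of myelin, measured 83.25, 71.06, 62.55 and 82.21 CPM under GFP and 36.81, 77.85, 54.08 and 61.33 CPM under RXRa, with a log2 fold change of -0.38 (SE 0.20, adjusted p = 0.307). In each of them RXRa replicate 2 lay within or above the GFP range and the other RXRa libraries lay below it. Dnajc7, the gene that overlaps Cnp, had a bulk log2 fold change of 0.06 (SE 0.05, adjusted p = 0.55).

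Ermn, a cytoskeletal protein of mature oligodendrocytes, measured 106.6, 102, 91.34 and 102.5 CPM under GFP and 51.99, 122.4, 66.85 and 97.38 CPM under RXRa. It had the widest scatter of the 9 under RXRa relative to its mean, 84.7 ± 31.5 CPM (SD, n = 4), and its log2 fold change of -0.25 (SE 0.23, adjusted p = 0.567) was -0.06 without RXRa replicate 1. Olig2, the basic helix-loop-helix factor that is expressed from precursors to mature cells, measured 52.61, 48.51, 45.89 and 43.94 CPM under GFP and 41.76, 57.04, 46.66 and 49.42 CPM under RXRa. The RXRa range enclosed the GFP range, and the log2 fold change was 0.03 (SE 0.10, adjusted p = 0.898).

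**Figure D1:**
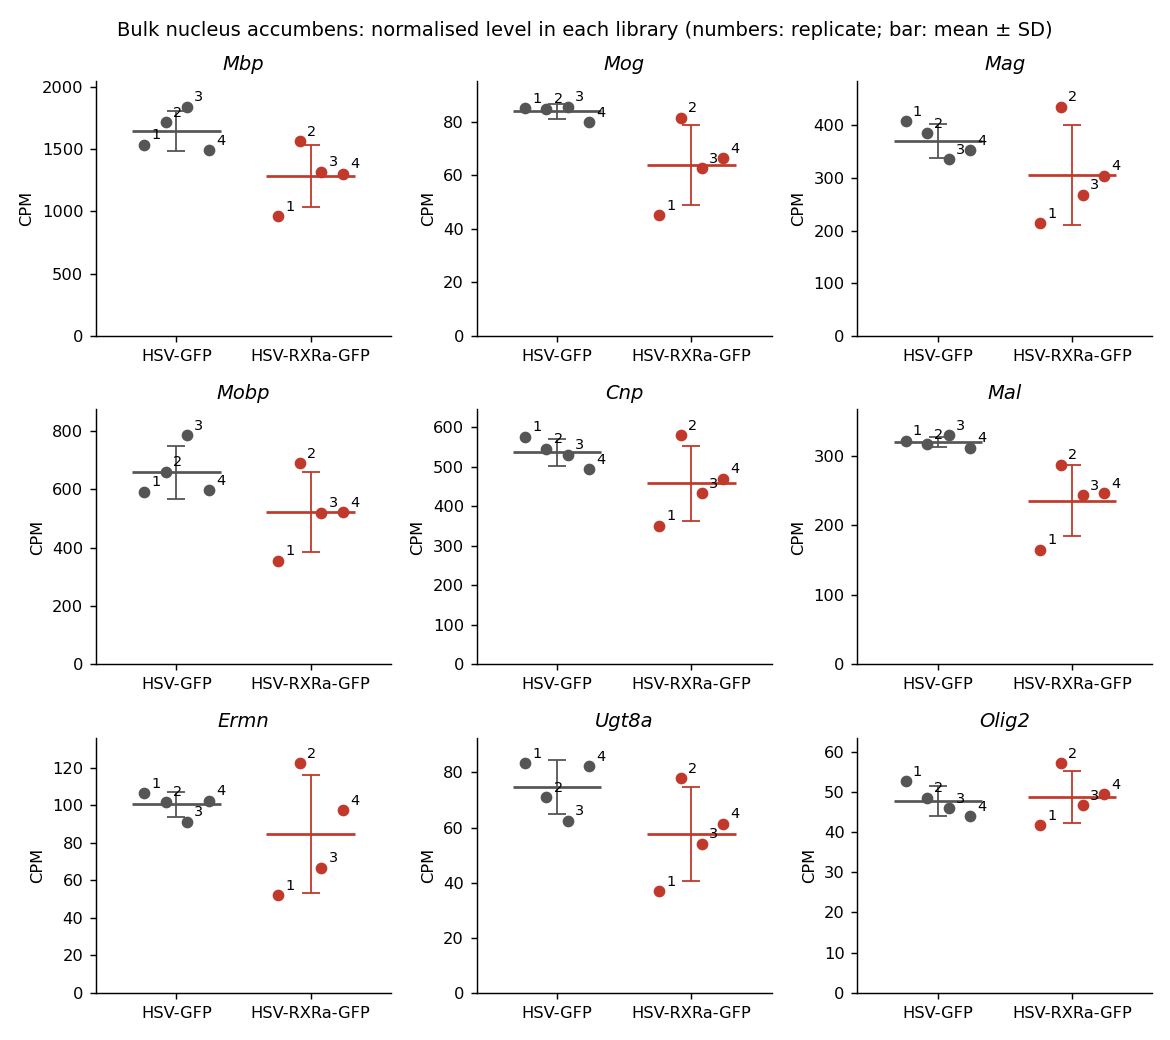
Normalised level (CPM, linear axis from 0) of each of the 9 genes in the 4 HSV-GFP (grey) and 4 HSV-RXRa-GFP (red) bulk libraries, numbered by replicate, with mean and SD. RXRa replicate 1 is the lowest library in all 9 panels, and only Mal has no overlap between groups.

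Without RXRa replicate 1 the median log2 fold change of the 9 genes was -0.19 and 8 of 9 were still lower, with -0.23 for Mbp, -0.25 for Mog, -0.13 for Mag, -0.11 for Cnp and -0.21 for Ugt8a, and 0.10 for Olig2. Without RXRa replicate 2, which was the highest of the 8 libraries for 4 of the 9 genes (Mag, Cnp, Ermn and Olig2), the median was -0.50 and 9 of 9 were lower. No gene of the 9 was called in either fit. The deviations of the 9 genes from their group means ran together over the 8 libraries. Pearson's r of each gene to the average of the 9 lay between 0.886 (Mobp) and 0.994 (Mog). That average includes the gene itself, so part of each r is built in. These are descriptions over 8 libraries, and all genes of a library share its depth and its tissue composition. The genes of all 16000 compared whose pattern was most like that average were Itgb4 (r = 0.994), Tmem88b (0.993), Gm4759 (0.990), Ndrg1 (0.989) and Fa2h (0.988). In bulk tissue, fewer oligodendrocytes and less RNA per oligodendrocyte cannot be told apart.

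Other genes of the lineage were read from lists beside the 9. Of 25 other myelin and mature oligodendrocyte genes, 23 were lower in RXRa libraries and 0 were called, with a median log2 fold change of -0.25. RXRa replicate 1 was the lowest library for 23 of these 25, and without it 21 were lower and 2 were called lower, while without RXRa replicate 2 these counts were 25 and 3. DESeq2 called 2 of the 25 and limma voom 0. The 2 with the smallest p were Opalin, a sialoglycoprotein of central myelin, at 41.6 ± 2.9 CPM under GFP and 30.8 ± 5.1 under RXRa (SD, n = 4 each; log2 fold change -0.43, adjusted p = 0.0754), and Tspan2, a tetraspanin, at 186 ± 12 and 139.6 ± 24.6 CPM (-0.41, adjusted p = 0.0966). Of 10 lineage transcription factors 8 were lower and 0 called, with a median of -0.20. Sox8, a SOX factor of the lineage, stood at 86.7 ± 7.9 CPM under GFP and 66.5 ± 7.2 under RXRa (log2 fold change -0.38, adjusted p = 0.0545), and Olig1, the neighbour and partner of Olig2, at 149.5 ± 8.7 and 130.2 ± 13.1 CPM (-0.20, adjusted p = 0.183). In contrast to Olig2, Sox10 had a log2 fold change of -0.25 and Myrf, the regulator of myelin genes, of -0.20, and neither was called (adjusted p = 0.32 and 0.574).

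Precursor and newly formed cells gave smaller values. Of 10 precursor genes 8 were lower and 0 called, with a median of -0.09; Neu4, a sialidase, had a log2 fold change of -0.25 (adjusted p = 0.24). Of 10 genes of newly formed oligodendrocytes 5 were higher and 5 lower, 0 were called and the median was -0.08; Rras2, a small GTPase, had a log2 fold change of 0.23 (adjusted p = 0.194) and Bmp4, a secreted growth factor, of -0.36 (adjusted p = 0.24). Of 18 genes for myelin lipid synthesis 10 were higher and 8 lower, with 0 called and a median of 0.02. Within that list Fa2h, which hydroxylates the fatty acids of galactolipids, had a log2 fold change of -0.40 (adjusted p = 0.0969), and Sptlc2, a subunit of the enzyme that starts sphingolipid synthesis in all cells, of 0.29 (adjusted p = 0.0799).

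Genes that oligodendrocytes express in a reactive state, most of which other cells use too, were mostly higher. Of 7 such genes 6 were higher and 2 were called, both higher, with a median log2 fold change of 0.40. B2m, the light chain of class I MHC, rose from 352.5 ± 65.9 to 575.1 ± 80.3 CPM (log2 fold change 0.71, SE 0.14, adjusted p = 0.0326), and H2-K1, a class I heavy chain, rose from 386.6 ± 121 to 782.4 ± 132.5 CPM (1.02, SE 0.21, adjusted p = 0.037; SD, n = 4 for each mean). In the fits that left out 1 library 0 of the 7 were called in 6 of 8, with 3 called without GFP replicate 1 or RXRa replicate 1. T cell markers moved with the same groups: 5 of 6 were higher and 4 called, with a summed level of 50.4 to 65.1 CPM under GFP and 57.5 to 100.2 under RXRa, and 0 were called without GFP replicate 4 or RXRa replicate 4. Their part in the result was not tested.

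Markers of other cell types in the same bulk libraries differed in direction from the 9 genes or shared it. Striatal projection neuron markers were lower for 10 of 10 and 2 were called (Gpr6 and Bcl11b; 0 in 5 of the 8 fits that left out 1 library), with a median log2 fold change of -0.18 and a summed level of 4309 to 4876 CPM under GFP and 3767 to 4310 under RXRa. Endothelial markers were higher for 7 of 8 with 3 called (0 without GFP replicate 4), and their sum lay between 268.7 and 346.1 CPM under GFP and between 357.2 and 403.9 under RXRa. Astrocyte markers were lower for 5 of 8 with 1 called higher, microglia markers were higher for 6 of 8 with 0 called, and general neuron markers were lower for 6 of 8 with 0 called. Cortical excitatory neuron markers, genes of a region next to the striatum, separated libraries within both groups: 5 of 6 were higher and 0 called, and their sum was 39.66, 147.8, 893.8 and 133.5 CPM under GFP and 560.1, 133.9, 657.6 and 106.6 CPM under RXRa, in order of replicate. GFP replicate 3, highest for 6 of 6 of them, also had the highest sum of the 9 genes (4108 CPM). It was the highest of the 8 libraries for 4 of the 9 genes, from 83.7% (Ugt8a) to 119% (Mobp) of the GFP mean. For the 25 other myelin genes it had the lowest sum of the GFP libraries (4136 CPM). RXRa replicates 1 and 3 had the lowest sums of the 9 genes (2219 and 3013 CPM). The summed level of the 9 genes was 3553 to 4108 CPM under GFP and 2219 to 3896 under RXRa, and that of the 25 other myelin genes 4136 to 4587 and 2726 to 4594. The part of tissue composition in the values of the 9 genes was not tested.

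**Figure D2:**
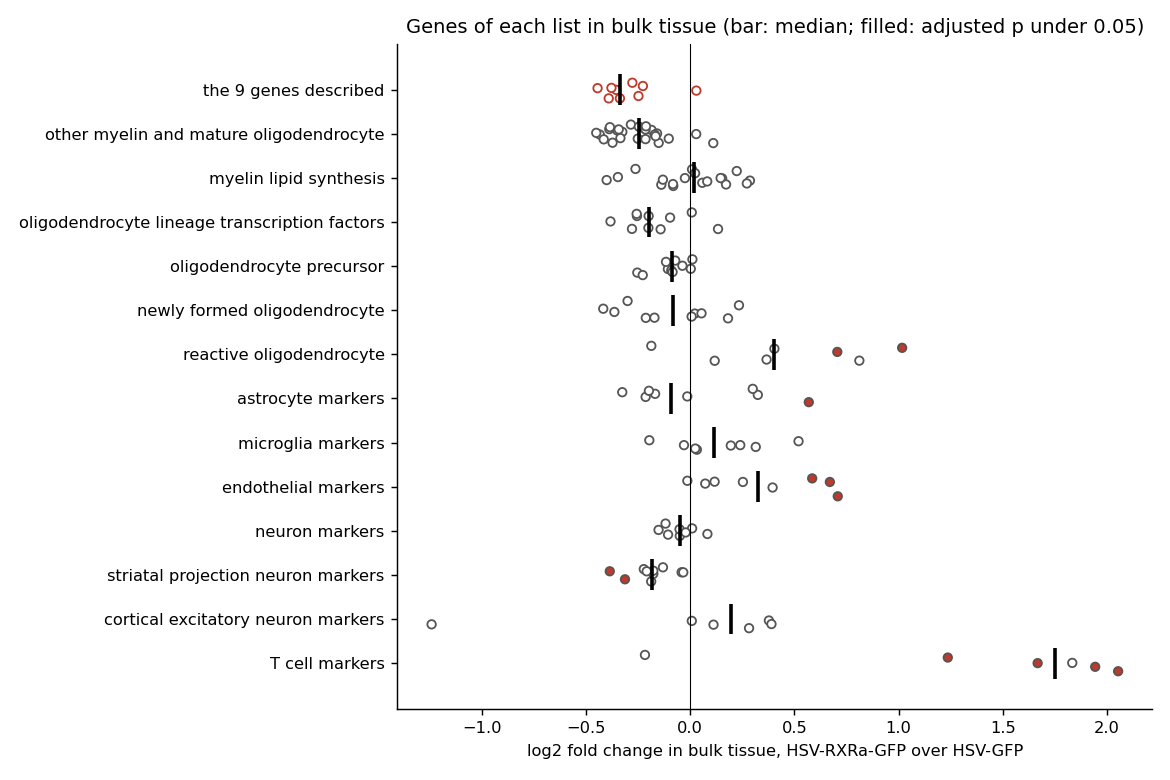
Log2 fold change in bulk tissue (x axis, HSV-RXRa-GFP over HSV-GFP) for each gene of each list (1 point a gene, vertical bar at the list's median, filled points with an edgeR adjusted p under 0.05). The 9 genes and the 25 other myelin genes lie mostly to the left of 0 with no filled point, and the T cell list lies furthest right with a median of 1.75.

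In sorted nuclei the 9 genes had median levels of 0.828 to 1.68 times that of genes with 0 counts in bulk. Whether these ratios lie outside the spread of single genes of that kind was not tested. The comparison level, here called the silent-gene density, was taken from 1576 protein-coding genes on autosomes, 5 kb or longer, that had 0 counts in every bulk library; it is their median CPM per kb of gene length from start to end, introns included, and it ranged from 0.303 to 0.596 CPM per kb over the 36 sorted libraries. Over these silent genes the sorted counts followed gene-body length (Spearman's rho 0.797) and hardly followed exon length (0.0662). Per kb of gene body, the 9 genes stood at a median of 1.18 times the silent-gene density, from 0.828 for Ugt8a and 0.906 for Mag to 1.61 for Cnp and 1.68 for Mbp (median over 35 libraries for each gene). Mog stood at 1.10, Olig2 at 1.12, Ermn at 1.18, Mal at 1.34 and Mobp at 1.44 times. None of the 9 reached 2 times in its median, in a range that covered the medians of astrocyte (1.13), microglia (1.05) and endothelial (1.17) markers. The highest single library stood at 3.685 times for Cnp, 2.488 for Mbp, 2.354 for Ermn and 2.026 for Mal, and the lowest for Mbp at 1.32. All such autosomal genes, expressed or not, had a median of 1.34, general neuron markers of 3.09 and striatal projection neuron markers of 5.84.

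Striatal projection neuron markers were compared with the sort labels: under EGFP, Drd2, Adora2a, Penk and Gpr6 were called higher and Drd1 and Pdyn lower in D2 than in D1 nuclei. Ugt8a was below the silent-gene density in 34 of 35 libraries and Mag in 26, whereas Mbp and Mobp were above it in all 35. Cnp, Mal and Ermn were above it in 34 of 35, Mog in 29 and Olig2 in 24. The order of the 9 genes therefore changed between tables: Mbp was first in both, but Mag, at 90.8 CPM per kb of exon in bulk tissue, was 8th of 9 over the silent genes in sorted nuclei. Cnp, 2nd in both, overlaps Dnajc7, which stood at 1.93 times the silent-gene density.

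**Figure D3:**
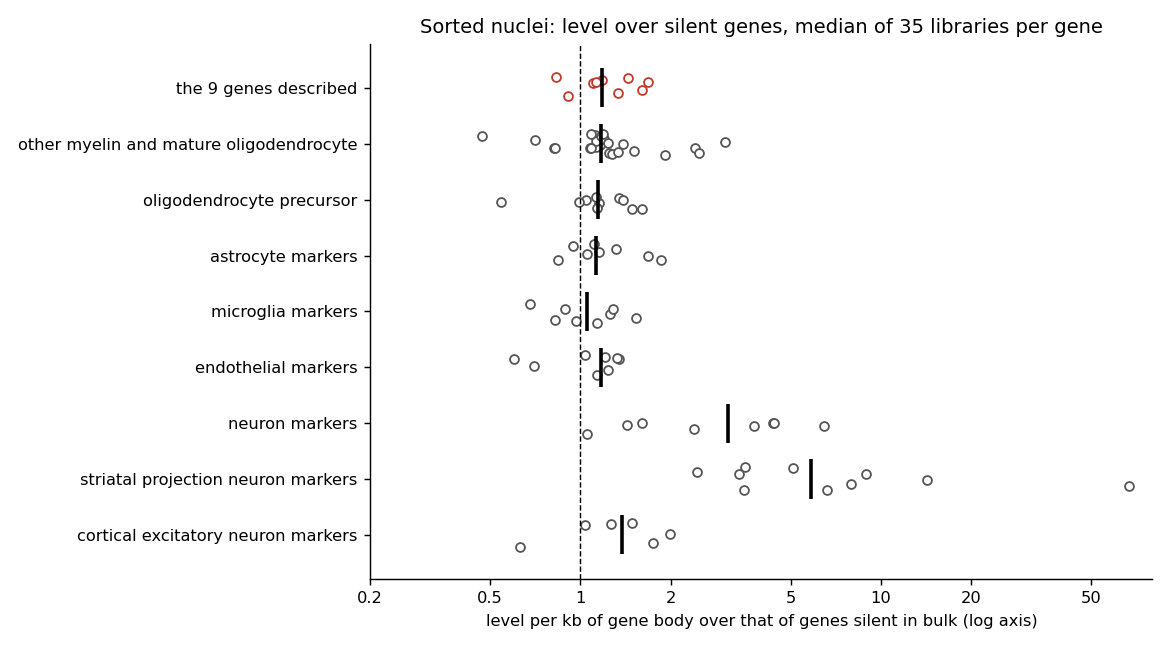
Level per kb of gene body in sorted nuclei divided by the silent-gene density (x axis, log scale), 1 point a gene (median of 35 libraries), with the median of each list as a bar and a dashed line at 1. The 9 genes lie between 0.828 and 1.68, among the astrocyte, microglia and endothelial markers and to the left of all striatal projection neuron markers.

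In D1 nuclei no difference between RXRa and EGFP passed the test for any of the 9 genes. With edgeR 0 of 9 were called over both sexes, as were 0 of all 43902 genes tested (0%), and at an unadjusted p under 0.05 the counts were 0 of 9 and 3518 of all genes (8.01%). DESeq2 and limma voom called 0 of the 9 too. The log2 fold changes ran from -0.14 for Ugt8a (SE 0.08) to 0.14 for Cnp (SE 0.17), with a median of -0.05 against -0.01 for all genes. Mbp, the best counted of the 9, averaged 90.3 ± 4.8 CPM (SD, n = 5) in female EGFP and 96.9 ± 6.5 (n = 4) in female RXRa libraries, and 93.4 ± 2.2 (n = 5) and 96.3 ± 4.7 (n = 4) in males, a log2 fold change of 0.07 (SE 0.05, adjusted p = 0.697). The groups of all 9 genes overlapped in both sexes.

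In D2 nuclei 1 of the 9 genes was called over both sexes, Ugt8a, which was lower under RXRa. Over all genes 22.1% were called, and 7.14% were called lower. Ugt8a measured 32.28, 34.17, 34.58 and 33.16 CPM in female EGFP replicates 1, 3, 4 and 5 and 32.96, 32.16, 24.17 and 24.85 CPM in female RXRa replicates 2 to 5. In males it measured 32.89, 33.66, 27.87, 41.49 and 27.13 CPM in EGFP replicates 1 to 5 and 27.98, 25.35, 32.5 and 20.58 CPM in RXRa replicates 1, 2, 3 and 5. The groups overlapped in each sex, and the log2 fold change was -0.26 (SE 0.09) with an edgeR adjusted p of 0.0319. The edgeR call was lost in 6 of the 17 fits that left out 1 library: without D2 male EGFP replicate 4 (-0.18, adjusted p = 0.123), D2 female RXRa replicate 4 (adjusted p = 0.0928), D2 male RXRa replicate 5 (0.0855), D2 male RXRa replicate 2 (0.0536), D2 female EGFP replicate 5 (0.0524) and D2 female EGFP replicate 4 (0.052).

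The silent-gene density differed between the same groups: it averaged 0.555 CPM per kb in D2 female EGFP and 0.431 in D2 female RXRa libraries, and 0.548 and 0.433 in males, a log2 difference of -0.38 in D2 against -0.19 in D1. With the log2 of this density as a covariate the log2 fold change of Ugt8a in D2 was -0.07 (adjusted p = 1), and 0 of the 9 genes and 0 of all genes passed. Of 43902 genes tested, 1347 had an unadjusted p under 0.05. The density comes from the same counts and itself differed between the groups. This fit therefore cannot tell an RXRa effect from a difference in the density, and a loss of calls is partly built in. Scaled by library totals alone, which shifted the median of all genes from -0.04 to -0.20, 4 of the 9 were called lower (Mbp, Mog, Ermn and Ugt8a). In the same D2 comparison 7 of 8 general neuron markers and 8 of 10 striatal projection neuron markers were called higher, with median log2 fold changes of 0.64 and 0.70; without D2 female RXRa replicate 4 these counts were 0, as was that of all genes. Non-neuronal lists had members called lower in the same comparison: 2 of 8 endothelial markers (8 of 8 lower, median -0.12), 2 of 8 astrocyte markers (6 of 8 lower, median -0.13) and 4 of 7 reactive genes (6 of 7 lower, median -0.29). These counts were also 0 without D2 female RXRa replicate 4, and 0, 0 and 1 without D2 male EGFP replicate 4. Microglia markers had 1 of 8 called in each direction. Among oligodendrocyte lists, 14 of 18 myelin lipid synthesis genes were higher, with 5 called higher and 0 lower (median 0.11). Of the 25 other myelin genes 17 were lower, with 1 called higher and 2 lower (median -0.05). Of 10 newly formed oligodendrocyte genes 8 were lower and 2 called lower. Lineage factors and precursor genes each had 1 of 10 called in each direction. Without D2 female RXRa replicate 4 none of these was called. The part of these lists in the Ugt8a value was not tested.

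Another 3 of the 9 genes had an unadjusted p under 0.05 with Ugt8a in D2, so 4 of 9, against 37.1% of all genes. Cnp was the 1 gene of the 9 that was higher, at 13.5 ± 4.5 CPM in female EGFP (SD, n = 4) and 18.4 ± 4.8 in female RXRa libraries (n = 4), and 15.2 ± 4.6 (n = 5) and 20.5 ± 7.4 (n = 4) in males, a log2 fold change of 0.44 (SE 0.17, adjusted p = 0.0593). DESeq2 called it. Dnajc7, on the opposite strand over 8912 bp of Cnp, was called higher in the same comparison, with a log2 fold change of 0.35 (SE 0.09, adjusted p = 0.0117), from 33.2 to 43.8 CPM in females and from 36.3 to 44.7 in males; its part in the Cnp value was not tested. With the silent-gene density as a covariate the Cnp value was -0.04.

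Mog was at 7.24 ± 0.94 CPM in female EGFP and 6.12 ± 0.80 in female RXRa libraries (n = 4 each), and at 7.66 ± 1.54 (n = 5) and 6.58 ± 1.43 (n = 4) in males, a log2 fold change of -0.23 (SE 0.10, adjusted p = 0.0856). Ermn was at 5.29 ± 0.52 and 4.13 ± 0.83 CPM in females and 6.33 ± 2.36 and 5.38 ± 1.61 in males, a log2 fold change of -0.30 (SE 0.14, adjusted p = 0.124). Both rest on 48 to 178 counts a library, and their groups overlapped in each sex. Mbp, with 1100 to 2085 counts a library in D2, had a log2 fold change of -0.01 (SE 0.05, adjusted p = 0.957), and its sign turned under other scalings. Mag (-0.08), Mobp (-0.09), Mal (-0.09) and Olig2 (-0.17) were not called.

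D2 male EGFP replicate 4 was the highest of the 35 sorted libraries for 7 of the 9 genes and for 7 of the 25 other myelin genes. It measured 122.4 CPM for Mbp, against 89.95 to 97.74 in the other D2 male EGFP libraries. It also had the highest summed level of the 35 libraries for astrocyte markers, 387.2 CPM against 248.6 to 263.8 in the other D2 male EGFP libraries, and for the reactive genes, 100.6 against 48.7 to 66.78 CPM. It is a control, so its level lowers the D2 log2 fold changes: without it 4 of 9 genes were lower and 5 higher, the median was 0.00 and the 1 gene called was Cnp, which was higher.

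**Figure D4:**
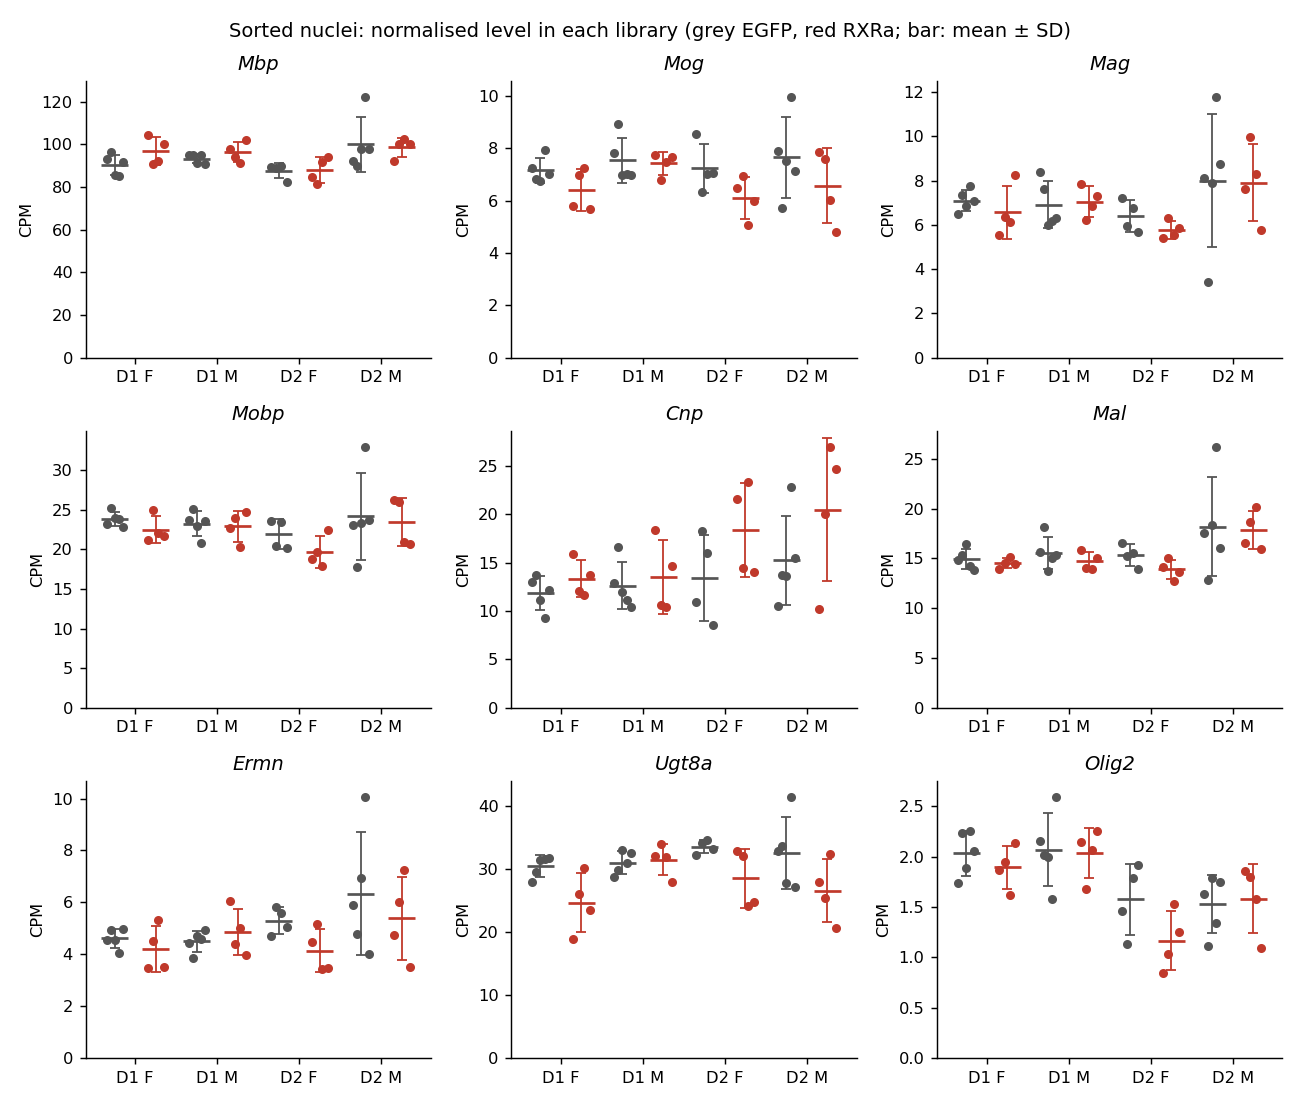
Normalised level (CPM, linear axis from 0) of each of the 9 genes in the 35 sorted libraries, by population and sex (F female, M male), grey for EGFP and red for RXRa, with mean and SD. The groups overlap in every panel, and 1 D2 male EGFP library stands highest for 7 genes, at 122.4 CPM for Mbp.

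Within each sex 0 of the 9 genes were called in D1 females, D1 males, D2 females or D2 males, and 0% of all genes were called in each. The genes at an unadjusted p under 0.05 were Ugt8a in D1 females (log2 fold change -0.30), Olig2 in D2 females (-0.42) and Ugt8a in D2 males (-0.29), against 6.28% of all genes in D1 females, 3.02% in D1 males, 25.2% in D2 females and 19.7% in D2 males. The difference of the RXRa effect between males and females was called for 0 of the 9 in D1 and in D2, with 0% of all genes. The largest of these differences were Ugt8a in D1, 0.32 (SE 0.17), and Olig2 in D2, 0.49 (SE 0.28), and both had an edgeR adjusted p of 1. The difference of the RXRa effect between D2 and D1 was called for 0 of the 9 and 0% of all genes, with values from -0.28 for Ermn (SE 0.19) to 0.30 for Cnp (SE 0.24). The call of Ugt8a in D2 is therefore not shown to differ from D1; the test of the difference gave -0.13 (SE 0.12, adjusted p = 0.729). DESeq2 and limma voom called 0 of the 9 in each of these comparisons.

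Between D2 and D1 nuclei under EGFP, over both sexes, 0 of the 9 were called, with 53 of all genes called (0.121%). Olig2 was the lower of the 2 with an unadjusted p under 0.05, at 1.58 ± 0.35 CPM in D2 females (SD, n = 4) against 2.04 ± 0.22 in D1 females (n = 5) and 1.53 ± 0.29 in D2 males against 2.07 ± 0.36 in D1 males (n = 5 each), a log2 fold change of -0.39 (SE 0.12, adjusted p = 0.244). Ermn was the higher, with 0.33 (SE 0.13, adjusted p = 0.353). The groups of Olig2 rested on 15 to 69 counts a library.

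**Figure D5:**
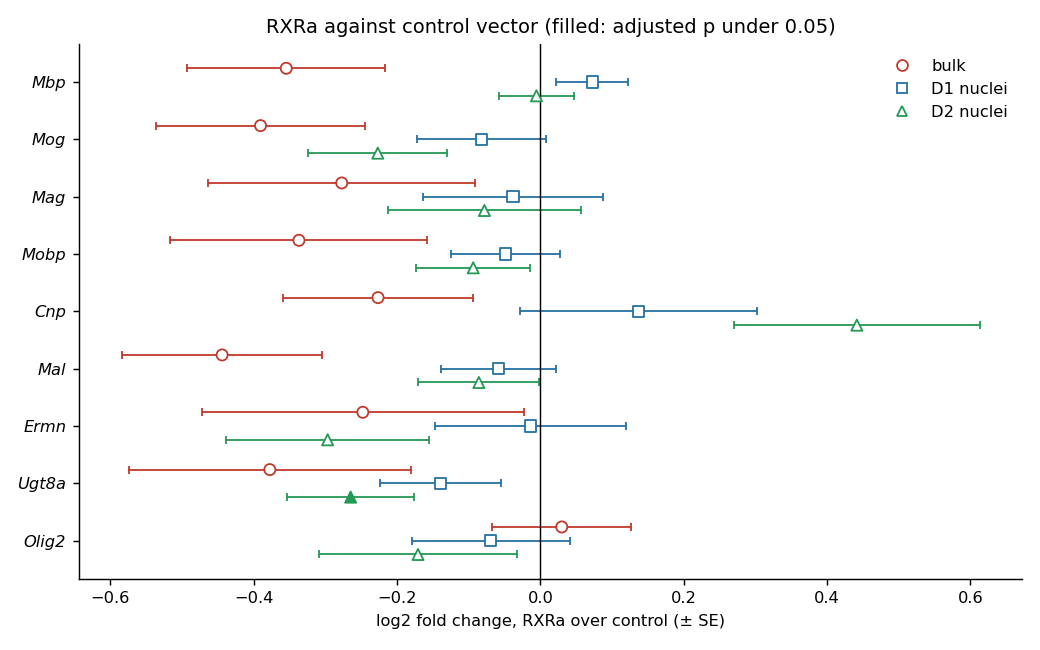
Log2 fold change (x axis, RXRa over control, ± SE) of each of the 9 genes in bulk tissue (circles), D1 nuclei (squares) and D2 nuclei (triangles), the sorted values over both sexes. Bulk values of 8 genes lie between -0.44 and -0.23, and the 1 filled point, Ugt8a in D2 at -0.26, has an edgeR adjusted p under 0.05.

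The library-to-library pattern of the 9 genes was looser in sorted nuclei than in bulk. Pearson's r of each gene to the average of the 9, as deviations from group means over 35 libraries, ran from 0.255 (Olig2), 0.349 (Cnp) and 0.437 (Ugt8a) to 0.85 (Mag) and 0.914 (Mal). That average again includes the gene itself, which raises r. Values as low as those of Olig2 and Cnp therefore do not show a pattern shared with the other genes. Among the genes most like the average, of 32511 compared, were Trf (r = 0.848), an iron carrier that mature oligodendrocytes make, C4b (0.758), a complement component, and Gm20425 (0.747). These libraries share kit, depth range and the silent-gene density, and D2 male EGFP replicate 4 is among them.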

How the data were processed

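Whole-number counts per gene were deposited by the authors for 8 bulk and 36 sorted libraries, with no normalization. Per the submitters' processing notes, reads passed FastQC, Trimmomatic, HISAT2, Picard and featureCounts (Subread) on GRCm38; versions, the annotation release, strand and the handling of intron reads were not given in the sources used here. Of 55487 gene identifiers 55394 matched GENCODE M21. Both vector entries were left out of library totals and tests, except that the CPM of the vector entries used totals that include them. A D2 female library with conflicting title and vector label (1 of the 36) was left out of all comparisons. All 72 replicate pairs differed by more than sampling noise (chi-square over its degrees of freedom, 1.785 to 63.56), and each library was 1 replicate.

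Counts were tested with edgeR 4.0.16 (R 4.3.3): filterByExpr by group, TMM scaling, quasi-likelihood test, Benjamini-Hochberg adjustment over all genes tested. Bulk was fitted with its 2 groups and the 35 sorted libraries as 8 groups with the sexes weighted equally; 11 contrasts were tested in all. Bulk replicate numbers were not used as pairs in the main fit. The 4 same-number correlations ran from -0.654 to 0.632 and the 12 others from -0.665 to 0.631. So few pairs cannot show whether the numbers pair libraries. Standard errors came from the log2 fold change and F. DESeq2 1.42.0 and limma 3.58.1 (voom), other scalings and filters, the silent-gene density as a covariate, a replicate block and leaving out each library were alternatives. The fitting code was tested on simulated data. The genes and gene lists were chosen with earlier results of these data known. Each of the 9 genes is named, with up to 2 genes of each oligodendrocyte list by smallest bulk p at a mean CPM of at least 1; the striatal markers, Dnajc7, Sox10 and Myrf were named after their values were seen. Likeness used log2(CPM + 1). Some genes that these rules select are not reported here.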

Additional observations from a re-analysis of the deposited data

Results flagged for a closer look

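Of 90 sets of 4 or 5 libraries examined for a library far from the rest of its group, 3 had one, at a threshold of 1 in 20 for each set. The sets are the 9 genes read in the same libraries, so they are not independent and this count cannot be set against chance. Mbp was lowest in D2 female EGFP replicate 5, at 82.44 CPM against 88.72 to 89.9 CPM in the other 3. Mbp was highest in D2 male EGFP replicate 4, at 122.4 CPM against 89.95 to 97.74 CPM in the other 4, and the same library was highest for 6 more of the 9 genes. Mog was lowest in bulk GFP replicate 4, at 79.85 CPM against 84.99 to 85.75 CPM.

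The D2 female library whose title and vector label name different vectors entered no comparison. Its Mbp level was 94.59 CPM, above the 81.43 to 94.23 CPM of the 8 D2 female libraries with a group, and its Mag level was 7.918 CPM, above their 5.391 to 7.227 CPM.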

How the results depend on the processing

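In bulk tissue the 8 negative log2 fold changes stayed negative under all alternatives; Mal was called under DESeq2 (-0.436), so 1 of the 9 was called there, with 1619 genes in all. The replicate block called 0 genes (3303 at an unadjusted p under 0.05) and 0 of the 9. Whether the numbers pair libraries is not known. Leaving out 1 library gave 9 to 1016 called genes and -0.056 to 0.104 for Olig2. In D1 signs turned for Mbp with library totals only (-0.002), for Ermn with RLE (0.00063), DESeq2 (0.00078) and the replicate block (0.007), and with the silent-gene density as a covariate for Mog (0.003), Cnp (-0.103) and Ermn (0.076); leaving out 1 library gave -0.108 to 0.007 for Mag and -0.086 to 0.027 for Ermn. In D2 Mbp turned with RLE (0.020), DESeq2 (0.021), no filter (0.00029) and the replicate block (0.005), and Cnp with the covariate (-0.041). The count called of the 9 in D2 was 4 with library totals only, 2 with DESeq2 and 0 with the covariate (0 genes in all), and 0 to 3 leaving out 1 library, when 0 to 14766 genes were called; 0 without D2 female RXRa replicate 4. Leaving out 1 library gave -0.047 to 0.070 for Mbp, -0.172 to 0.038 for Mag, -0.153 to 0.004 for Mobp and -0.136 to 0.028 for Mal in D2. Within sexes, called genes were 4 with DESeq2, 1 with the replicate block and 0 to 4 leaving out 1 library in D1 females; 3672 with DESeq2 and 0 to 6699 in D2 females; and 23 with DESeq2, 1 with limma voom and 0 to 5986 in D2 males, where 0 to 1 of the 9 were called. The sex difference in D1 had 2 with DESeq2 and 0 to 3. D2 against D1 under EGFP had 90 with DESeq2 and 203 with the covariate. Silent genes of at least 20 kb gave a median ratio of 1.25 in place of 1.18. The causes were not tested. Depth limits Olig2, Mog, Ermn and Mag in sorted nuclei, where counts fell to 11, 66, 44 and 46.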
